A study of Drosophila melanogaster with 9 samples.

Results

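The regions described here are the replication origins that lie on the 6 heterochromatic scaffolds of the Drosophila melanogaster dm3 assembly, 2LHet, 2RHet, 3LHet, 3RHet, XHet and YHet. Every row whose chromosome name ends in Het was taken from each of 5 deposited lists of called regions, which gave 5287 of 32247 rows. The Bg3 list held 1481 such origins of 8212, the pooled S2 list 812 of 7268, and the lists of S2 fractions 4, 5 and 6 held 933 of 4505, 1071 of 6448 and 990 of 5814. The remaining rows, nearly all on the arms 2L, 2R, 3L, 3R, 4 and X, served as the background.

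All lists came from SNS-seq, in which short nascent leading strands are purified from a density gradient and sequenced. A nascent strand starts with an RNA primer that protects it from lambda exonuclease, so the enzyme removes broken genomic DNA and leaves strands that began at an origin. Fragments of 0.5 to 2.5 kb were collected from cultured cells with no treatment. The Bg3 group was ML-DmBG3-c2, a line derived from the larval central nervous system, grown in M3 medium with insulin. The S2 group was S2-DRSC, a line derived from embryos, grown in Schneider's medium. Each had 2 biological replicates of pooled gradient fractions and 1 list for both. Single gradient fractions were sequenced from S2 cells alone, with 1 sample for each. Fraction 4 held short strands, fraction 5 middle-sized strands and fraction 6 long strands. No list carries a column per replicate, so no test between replicates was possible. Values below are descriptions, and the 95% intervals cover counting error only and treat neighbouring regions as independent, which they are not.

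Heterochromatin is the compact, gene-poor chromatin around centromeres and along the Y chromosome. It is rich in satellite repeats and transposons, carries repressive histone methylation bound by heterochromatin protein, and is known for replicating late in S phase. The scaffolds are the assembled part of this DNA that could not be joined to the arms, so satellite blocks are largely missing from them. How reads that match several places were treated, and how many copies of each scaffold either line carries, were not given in the labels. More copies, more reads placed by chance among copies, and more starts per copy therefore cannot be told apart in any value below.

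The scaffolds held more called regions per Mb than the arms in all 5 lists, and the surplus differed between the lists. Up to the last region called in any list they spanned 9.24 Mb, or 7.13% of scaffolds and arms together. They took 18.0% of the Bg3 list (95% interval 17.2 to 18.9) and 11.2% of the pooled S2 list (10.5 to 11.9). Fraction 4, with the short strands, had 20.7% of its regions there (19.5 to 21.9), fraction 5 had 16.6% (15.7 to 17.5) and fraction 6 had 17.0% (16.1 to 18.0).

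In Bg3 the density was 160.3 regions per Mb on the scaffolds and 55.9 on the arms. In pooled S2 it was 87.9 on the scaffolds and 53.6 on the arms. The arms as a whole were called about equally often in both lines, while the scaffolds were not. Fraction 4 had 101.0 regions per Mb on the scaffolds against 29.7 on the arms, fraction 5 had 115.9 against 44.7, and fraction 6 had 107.1 against 40.1. In base pairs, called regions covered 17.0% of the scaffolds and 4.03% of the arms in Bg3, and 13.1% of the scaffolds and 4.78% of the arms in pooled S2.

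**Figure D1:**
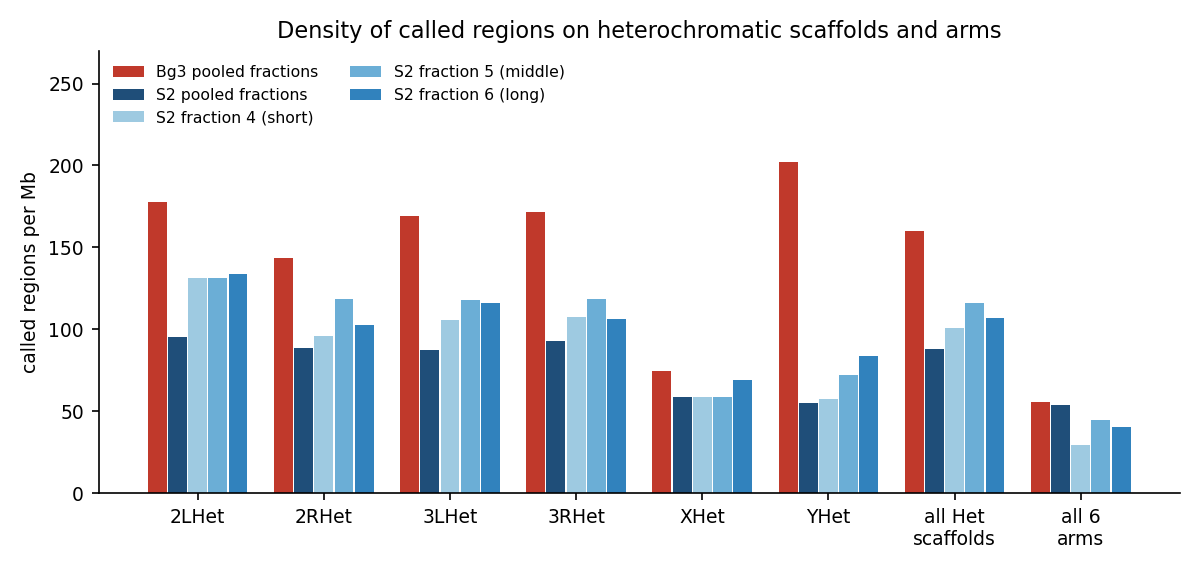
Called regions per Mb (vertical axis) on each heterochromatic scaffold, on all 6 scaffolds and on all 6 arms, with 1 bar per list. Bg3 stands highest on every scaffold, from 74.6 per Mb on XHet to 202.0 on YHet, while on the arms Bg3 and pooled S2 stand at 55.9 and 53.6.

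By scaffold, 2RHet held 471 Bg3 and 291 S2 origins, 3LHet held 432 and 223, and 3RHet held 429 and 233 in the same order of lines. The small scaffolds held 65 Bg3 and 35 S2 origins on 2LHet, 14 and 11 on XHet, and 70 and 19 on YHet. Bg3 had the larger count on every scaffold. Divided by the same ratio on the arms, Bg3 over S2 was 1.75 on all scaffolds (1.61 to 1.91). It was 3.54 on YHet (2.10 to 6.22), 1.86 on 3LHet (1.58 to 2.19), 1.78 on 2LHet (1.16 to 2.77), 1.77 on 3RHet (1.50 to 2.08) and 1.55 on 2RHet (1.34 to 1.80). Single arms departed from 1 as well, with 0.846 on 2L (0.785 to 0.912), 0.850 on 3R (0.791 to 0.914) and 1.25 on 3L (1.17 to 1.35). On XHet the ratio of 1.22 had an interval of 0.515 to 2.97, so neither direction could be shown with so few regions.

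The surplus of Bg3 regions was spread along the scaffolds. Of 89 complete windows of 100 kb, 84 held more Bg3 than S2 origins, 4 held fewer and 1 held equal numbers. On the arms 505 of 1201 windows (42.0%) held more Bg3 origins. The densest Bg3 window held 28 origins on 3RHet at 800001 to 900000, and the densest S2 window held 18 on the same scaffold at 600001 to 700000. Fraction 4 was densest on 2RHet at 1600001 to 1700000 with 17 regions. Fractions 5 and 6 were densest in the first window of 3LHet with 21 and 20 regions.

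The single fractions came from S2 cells, yet they too held more scaffold regions than the pooled S2 list. Relative to the arms, fraction 4 over pooled S2 was 2.08 (1.89 to 2.28), fraction 5 was 1.58 (1.44 to 1.74) and fraction 6 was 1.63 (1.49 to 1.79). A count difference on the scaffolds was therefore also seen between lists of 1 cell line. The labels do not say whether pooled and single-fraction libraries shared a preparation, and depth outside called regions is unknown.

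The parts of the arms most like the scaffolds are the ends next to the centromeres and the small chromosome 4, which is largely heterochromatic. In the 2 Mb of each large arm nearest the centromere, Bg3 had 90.2 regions per Mb and S2 had 69.2, and Bg3 over S2 relative to all arms was 1.25 (1.13 to 1.38). On chromosome 4, Bg3 had 78.6 regions per Mb and S2 had 31.9, for a relative ratio of 2.37 (1.64 to 3.45). The rest of the arms gave 0.959 (0.925 to 0.995). The scaffold ratio lay between those of the proximal ends and of chromosome 4.

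By any overlap, most scaffold origins of Bg3 were not called in S2, whereas most scaffold origins of S2 were called in Bg3. An origin was counted as shared when it overlapped one of the other list by at least 1 bp. Of 1481 Bg3 origins on the scaffolds, 656 were shared with S2, or 44.3% (41.7 to 46.9), beside 42.1% on the arms. Of 812 S2 origins on the scaffolds, 609 were shared with Bg3, or 75.0% (71.9 to 77.9), beside 41.5% on the arms. The Bg3 share was close to its background, and the S2 share was well above it. Chromosome 4 had a like S2 share, with 32 of 43 origins in Bg3 (74.4%, 58.8 to 86.5), and the proximal ends of the arms had 54.2% (50.4 to 58.0). Both statements depend on the overlap asked for. When each region had to cover 50% of the other, 43.0% of S2 scaffold origins were in Bg3, beside 24.0% on the arms. With gaps of up to 500 bp allowed, 50.8% of Bg3 scaffold origins were in S2, beside 46.3% on the arms. The covered part of the scaffolds was 4.22 times that of the arms in Bg3, which by itself raises the number of overlaps, and its part in the 75.0% was not tested.

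The Bg3 share was lowest on YHet, where 18 of 70 origins (25.7%, 16.0 to 37.6) were shared. It was 40.3% on 3LHet, 42.4% on 3RHet, 47.7% on 2LHet and 51.2% on 2RHet, and 10 of 14 on XHet. The S2 share was much alike on the scaffolds with many origins. It was 72.2% on 2RHet, 76.2% on 3LHet, 75.1% on 3RHet and 74.3% on 2LHet, and 10 of 11 origins on XHet and 18 of 19 on YHet were shared.

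Scaffold origins were wider than arm origins, and a wider region is more likely to meet another. The median width in Bg3 was 647 bp on the scaffolds (608 to 679) and 433 bp on the arms. In pooled S2 it was 972 bp on the scaffolds (904 to 1051) and 601 bp on the arms. Within classes of equal width the intervals of the Bg3 shares on scaffolds and arms overlapped in all 5 classes. Of Bg3 origins up to 300 bp, 23.3% were shared with S2 on the scaffolds and 29.7% on the arms. From 300 to 500 bp the shares were 33.6% on the scaffolds and 40.5% on the arms, and from 500 to 1000 bp they were 43.1% and 47.4%. From 1000 to 2000 bp they were 58.9% on the scaffolds and 55.9% on the arms, and above 2000 bp they were 70.5% and 65.2%.

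Within classes of equal width the scaffold origins of S2 were still shared more often. Up to 300 bp the share in Bg3 was 87.0% on the scaffolds (20 of 23) and 21.5% on the arms. From 300 to 500 bp it was 73.9% on the scaffolds and 28.8% on the arms, and from 500 to 1000 bp it was 69.9% and 42.0%. From 1000 to 2000 bp it was 70.2% on the scaffolds and 59.6% on the arms. Above 2000 bp the shares were 86.3% on the scaffolds and 77.2% on the arms. On the arms sharing climbed with width, while on the scaffolds even narrow S2 origins were mostly found in Bg3.

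**Figure D2:**
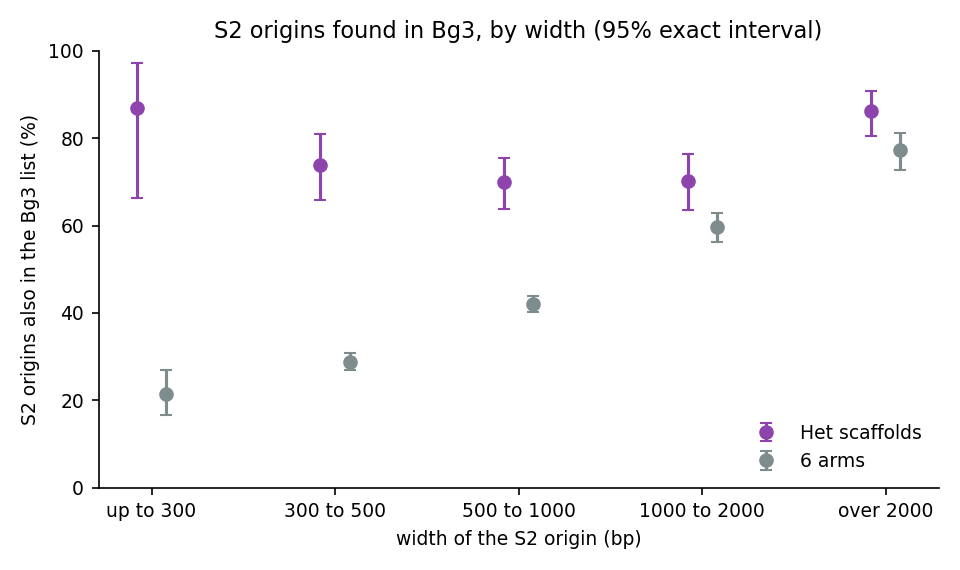
Percent of pooled S2 origins that overlap a Bg3 origin (vertical axis) by width of the S2 origin in bp (horizontal axis), for the Het scaffolds and the 6 arms, with exact 95% intervals. Scaffold origins lie between 69.9% and 87.0% in all width classes, and arm origins between 21.5% and 77.2%.

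Sharing was next set against strength. Strength is the authors' efficiency, in reads per kb of the region, and each whole list was cut by it into 5 classes of equal size. Of the Bg3 scaffold origins, 34.9%, 40.7%, 39.5%, 43.7% and 57.0% were in S2 from the weakest to the strongest class, beside 28.8%, 37.6%, 43.2%, 46.6% and 54.5% on the arms. Neither set was higher throughout. In the weakest class of S2, 104 of 136 scaffold origins (76.5%) were in Bg3, beside 30.1% of arm origins. The next 3 classes had 57.1%, 74.8% and 72.3% on the scaffolds, beside 30.2%, 36.2% and 46.2% on the arms. In the strongest class, 194 of 227 scaffold origins (85.5%) were, beside 67.2% of arm origins.

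Unshared S2 origins often lay close to a Bg3 origin. The 825 unshared Bg3 origins on the scaffolds had their nearest S2 origin at a median of 3273 bp, against 5920 bp on the arms, and 21.2% had one within 1 kb, against 12.8%. The 203 unshared S2 origins on the scaffolds had their nearest Bg3 origin at a median of 1515 bp, against 7345 bp on the arms, and 37.9% had one within 1 kb, against 11.2%. Bg3 had 160.3 regions per Mb on the scaffolds against 55.9 on the arms, and S2 had 87.9 against 53.6. Higher density by itself shortens such distances, and its part was not tested. Shared origins held 85.4% of the Bg3 reads on the scaffolds and 65.9% on the arms. In S2 they held 95.5% on the scaffolds and 77.4% on the arms.

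Regions of the S2 fractions lay in the Bg3 list more often than in the pooled S2 list on the scaffolds. On the arms as a whole it was the other way round. Of 933 scaffold regions of fraction 4, 65.7% were in Bg3 and 55.8% in pooled S2, beside 50.5% and 64.6% on the arms. Of 1071 in fraction 5, 67.4% were in Bg3 and 60.7% in pooled S2, beside 43.6% and 63.6% on the arms. Of 990 in fraction 6, 69.2% were in Bg3 and 61.0% in pooled S2, beside 40.1% and 60.0% on the arms. The difference, Bg3 minus S2, was 9.86, 6.72 and 8.18 percentage points on the scaffolds for fractions 4, 5 and 6, and -14.1, -20.0 and -19.8 points on the arms. The parts most like the scaffolds lay between. On chromosome 4, 48.2%, 55.9% and 49.2% were in Bg3 and 46.4%, 57.6% and 54.2% in pooled S2, in the same order of fractions. On the proximal ends of the arms, 56.2%, 54.1% and 55.7% were in Bg3 and 58.6%, 58.7% and 59.4% in pooled S2.

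This order of the lists on the scaffolds rested on how an overlap was counted. When each region had to cover 50% of the other, the scaffold differences turned to -4.29, -3.83 and -5.56 points for fractions 4, 5 and 6. With only the origins above each pooled list's median strength they were -1.29, -2.24 and -2.73 points. The contrast with the arms kept its direction. In all 6 ways of counting, a larger share of scaffold than of arm regions of every fraction was in Bg3. The covered part of the scaffolds was 4.22 times that of the arms in Bg3, which by itself raises overlaps, and its part was not tested. The surplus of the scaffold share over the arm share ranged from 4.98 to 16.5 points for fraction 4. It ranged from 10.6 to 25.9 points for fraction 5 and from 13.9 to 30.6 for fraction 6.

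**Figure D3:**
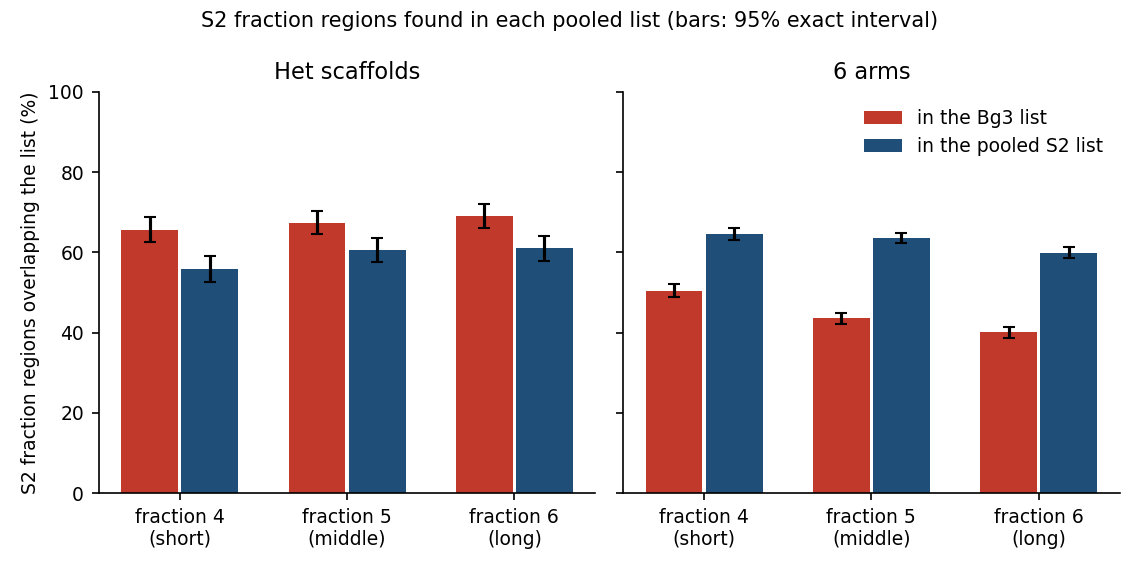
Percent of the regions of each S2 fraction (vertical axis) that overlap the Bg3 list or the pooled S2 list by at least 1 bp, on the Het scaffolds (left panel) and the 6 arms (right panel), with exact 95% intervals. On the scaffolds the Bg3 bars, 65.7% to 69.2%, stand above the S2 bars, 55.8% to 61.0%, and on the arms they stand below them.

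YHet gave the widest gap. Of its 20, 25 and 29 regions in fractions 4, 5 and 6, all but 1 in each fraction were in Bg3, while 12, 14 and 14 were in pooled S2. On XHet each fraction had equal numbers in both lists. On 3LHet the gap was 17.0, 11.3 and 14.1 points for fractions 4, 5 and 6, and on 3RHet it was 7.43, 4.04 and 1.50 points.

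Origins found in every S2 fraction were commoner on the scaffolds. Of Bg3 origins there, 507 (34.2%, 31.8 to 36.7) overlapped regions of all 3 fractions, beside 18.8% on the arms. Of S2 origins there, 440 (54.2%, 50.7 to 57.7) did, beside 26.8% on the arms. The covered part of the scaffolds was 4.56, 3.42 and 3.41 times that of the arms in fractions 4, 5 and 6. Its part in these shares was not tested. The 440 S2 origins had a median strength of 1957 reads per kb and a median width of 1316 bp. The 181 S2 scaffold origins in no fraction had medians of 1427 reads per kb and 615 bp. Origins seen in every fraction were thus stronger and wider, on the arms as well, where the median strengths were 2043 and 1423 reads per kb.

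Joining overlapping regions of all 5 lists gave 1856 loci on the scaffolds. Of these, 362 (19.5%, 17.7 to 21.4) held a region of every list, against 1065 of 12417 (8.58%) on the arms. The count was 233 without 2RHet, and 158 S2 origins met a region of every other list when 50% of both had to overlap. Called regions covered more of the scaffolds than of the arms in every list, and the part of this in the share was not tested. The share of loci in every list was 21.5% on 2RHet, 18.6% on 3LHet and 18.1% on 3RHet. It was 20.0% on 2LHet and 16.9% on YHet, and 6 of 19 loci on XHet. Loci with a Bg3 region alone numbered 574 (30.9%), and loci with a pooled S2 region alone numbered 85 (4.58%). On the arms these were 25.3% and 16.6%. On YHet 47 of 71 loci were found in Bg3 alone and 1 in pooled S2 alone.

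A group of scaffold loci was seen in all 3 S2 fractions but not in the pooled S2 list. There were 165 of them among 584 loci with all fractions (28.3%), against 466 of 2155 (21.6%) on the arms. The Bg3 list held 93 of the 165 (56.4%), against 145 of the 466 on the arms (31.1%). Both shares were lower than those of loci with all fractions and a pooled S2 region. Of these, Bg3 held 362 of 419 on the scaffolds (86.4%) and 1065 of 1689 on the arms (63.1%). An example of a locus missing from pooled S2 is the region of 2RHet at 590631 to 599005, 8375 bp wide in fraction 4. It was called in fractions 5 and 6 and in Bg3 as well.

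The median strength of all scaffold origins was close to that of the arms, and the scaffolds held a larger part of the strongest origins. In Bg3 the weakest strength class also took a larger part of scaffold than of arm origins, 27.1% against 18.4%. In S2 it took a smaller part, 16.7% against 20.4%. The median strength in Bg3 was 2297 reads per kb on the scaffolds (2241 to 2357) and 2248 on the arms, a ratio of 1.02. In S2 it was 1741 on the scaffolds (1680 to 1801) and 1552 on the arms, a ratio of 1.12. The small scaffolds had higher S2 medians, 1.70 times the arms median on XHet (11 origins) and 1.80 times on YHet (19 origins). Counted as reads per origin, the ratio of medians was 1.54 in Bg3 and 1.92 in S2. The scale of the lists differs, so strengths of Bg3 and S2 are set side by side only as multiples of each list's own arms median.

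Among the strongest 10% of each list, 268 of 821 Bg3 origins (32.6%) and 130 of 727 S2 origins (17.9%) were on scaffolds, beside 18.0% and 11.2% of the whole lists. In each list 6 of the 10 strongest origins were there. A strong upper end was not limited to the scaffolds. In S2 the strongest 10% of scaffold origins began at 3734 reads per kb. Those of chromosome 4 (43 origins) began at 16784 and those of X at 5761, against 2687 on all arms together. In Bg3 they began at 4200 on the scaffolds, 6141 on chromosome 4 (106 origins), 7304 on X and 3253 on all arms. The scaffolds took 41.4% of the reads inside listed origins in Bg3 and 31.2% in S2. In Bg3 a single origin on 3RHet held 23.0% of the scaffold reads, and without it the share was 35.2%. In S2 the share without the strongest origin was 29.5%. That origin was not the one with the most S2 reads, which lay on 2RHet and held 17.9% of the scaffold reads.

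The strongest origin of both lists was the same narrow region of 3RHet. In Bg3 it lay at 2308094 to 2308554, had a strength of 6533065 reads per kb or 2906 times the arms median, and held 9.53% of all reads of the list. In S2 it lay at 2308106 to 2308542, had a strength of 2331080 reads per kb or 1502 times the arms median, and held 2.42%. All 3 fractions called it with nearly the same ends. The second in both lists was on YHet, at 4456 to 4774 in Bg3, where its strength was 3438785 reads per kb (1530 times the arms median), and at 4560 to 4762 in S2 with 1601493 (1032 times).

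Some other strong origins differed in relative strength between the lines. On 2RHet, the origin at 3187814 to 3188388 had 1003514 reads per kb in Bg3 (446 times the arms median), while its S2 partner had 109499 (70.6 times). On YHet, the origin at 137120 to 137586 had 741164 in Bg3 (330 times) and its S2 partner 56940 (36.7 times). On 3RHet, the origin at 560686 to 562136 had 622074 in Bg3 (277 times) and its S2 partner 95136 (61.3 times). These 3 were strong in both lines and relatively stronger in Bg3.

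Some other S2 leaders had Bg3 partners with far lower multiples of the arms median, and others did not. Of those that did, the ones with the most reads were wide. On 2RHet, the one at 2086240 to 2094199 had a Bg3 partner of 7007 reads per kb (3.12 times the arms median), against 295572 in S2 (190 times), where it held 5.58% of the list's reads. Fractions 5 and 6 called it with nearly the same ends, and fraction 4 had no region there. On YHet, the one at 71722 to 76376 had 4430 in Bg3 (1.97 times) and 215481 in S2 (139 times). On 3LHet, the one at 853960 to 858863 had 4699 in Bg3 (2.09 times) and 208027 in S2 (134 times). A narrow one, of 606 bp on 3LHet at 1735267 to 1735872, had 2586 in Bg3 (1.15 times) and 109219 in S2 (70.4 times), and all 3 fractions called it. Other wide origins kept high multiples in both lines. On 3LHet, the one at 615119 to 621419 had 69616 in Bg3 (31.0 times) and 111473 in S2 (71.8 times). On 3RHet, the one at 787602 to 791977 had 144524 in Bg3 (64.3 times) and 102851 in S2 (66.3 times). XHet was led in both lines by 1 wide origin, with a strength of 176837 reads per kb in Bg3 (78.7 times) and 361505 in S2 (233 times), which held 90.0% of the XHet reads of Bg3 and 93.0% of those of S2.

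The remaining scaffold leaders were modest. On 3LHet the strongest Bg3 origin, at 168082 to 168591, had 78715 reads per kb (35.0 times the arms median), and its S2 partner had 34342 (22.1 times). On 2LHet the strongest Bg3 origin, at 187447 to 188444, had 15440 (6.87 times), and its S2 partner had 2000 (1.29 times). The strongest S2 origin of 2LHet, at 198291 to 202888, had 7063 (4.55 times), and the strongest of its 3 Bg3 partners had 3213 (1.43 times). 2LHet thus held no origin comparable with the leaders of the other scaffolds.

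For most scaffold origins that could be matched singly, the relative strength was alike in the lines. The 442 that overlapped exactly 1 origin of the other line, with that origin overlapping no further one, had centres a median of 101 bp apart. Their strength in Bg3 over that in S2, each as a multiple of its arms median, had a median of 0.977, with quartiles of 0.773 and 1.22. It lay within 2-fold for 390 of them (88.2%), beside 89.9% of 2331 pairs on the arms. On XHet the 5 pairs had a median of 0.338, lower than on any other scaffold. Of the 442 scaffold pairs, the relative strength was over 4-fold higher in Bg3 for 5 and over 4-fold higher in S2 for 8. Of the 2331 arm pairs these counts were 3 and 31. Across the 442 pairs Spearman's rho was 0.522, beside 0.373 across the arm pairs. Both values are descriptions, since both lists rest on the same genome sequence and its mappability.

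**Figure D4:**
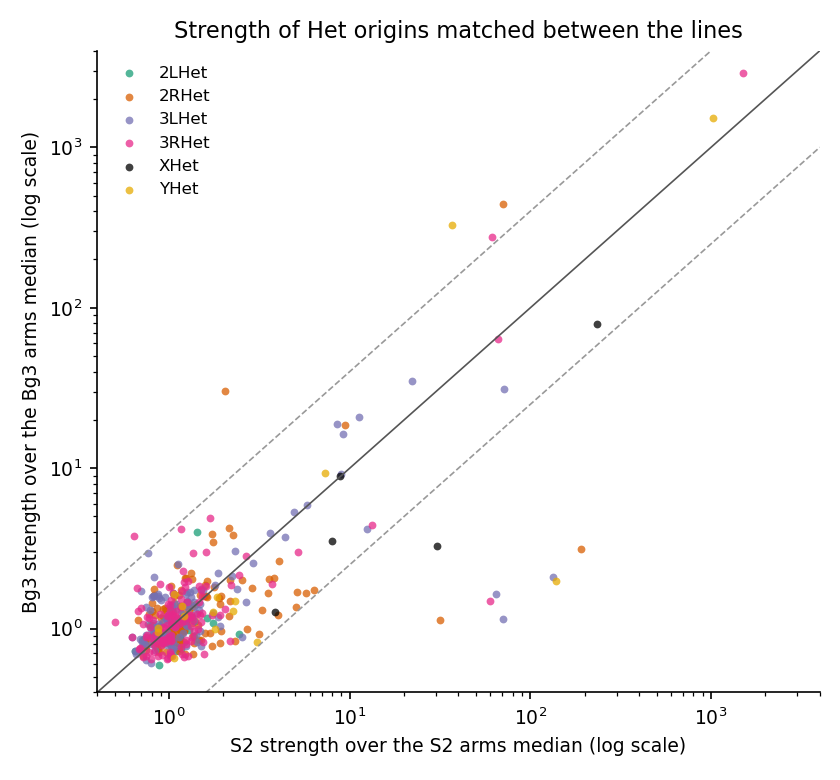
Strength of the 442 singly matched scaffold origins as a multiple of the arms median, Bg3 on the vertical and S2 on the horizontal log axis, coloured by scaffold; the solid line marks equality and the dashed lines a 4-fold difference. Most points crowd near 1 on both axes, 5 lie above the upper and 8 below the lower dashed line.

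Bg3 strengths times width could be written as a weighted mean of 2 whole numbers of reads, with weights of 0.473 and 0.527, for 7994 of the 7998 origins of the list under 20000 reads. Each S2 strength was 1 whole number over the width. The labels do not say what the 2 numbers count. They could be solved for 1428 of 1481 scaffold origins, and the other 53 had too many reads to be solved. The first over the second had a median of 0.852 (0.847 to 0.857) on the scaffolds and 0.903 on the arms. The numbers lay within 2-fold of each other for 99.8% of scaffold origins and 99.7% of the 6563 arm origins solved. No solved Bg3 origin, on the scaffolds or on the arms, had a 0 in either number.

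Wide regions carried a large part of the S2 reads, on the scaffolds and on the arms. Of the Bg3 scaffold reads, 18.1% fell in the 56 origins that were at least 4 kb wide, against 35.8% on the arms. Of the S2 scaffold reads, 70.1% fell in the 59 origins of that size, against 62.3% on the arms. Of the 59, 54 overlapped a Bg3 origin and 54 overlapped regions of all 3 fractions. The same counts were not made for the 200 S2 arm origins of that size. Above 2000 bp, 86.3% of S2 origins on the scaffolds and 77.2% on the arms overlapped a Bg3 origin. Without origins of 4 kb or more, the scaffold share of reads was 47.4% in Bg3 and 26.5% in S2.

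Scaffold regions were wider than arm regions in the single fractions too. The median was 967 bp on the scaffolds against 626.5 bp on the arms in fraction 4, 672 against 517 bp in fraction 5, and 711.5 against 556 bp in fraction 6. By scaffold, 2RHet had the widest medians in pooled S2 (1238 bp) and in fraction 4 (1246 bp), and YHet had the narrowest in every S2 list, from 285 to 401 bp. Among scaffold regions, the widest of fraction 4 were on 3LHet at 1481295 to 1489790 (8496 bp), on 2RHet at 590631 to 599005 (8375 bp) and on 2RHet at 1342310 to 1350054 (7745 bp). The widest scaffold region of fraction 5 was on 2RHet at 2086244 to 2094195 (7952 bp), and the same site gave the widest scaffold region of fraction 6 (7962 bp).

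When the same region was followed through the fractions, it was wider with short strands than with middle-sized strands on the scaffolds. The 483 scaffold regions matched singly in all 3 fractions had median widths of 1007, 763 and 799 bp in fractions 4, 5 and 6. Fraction 4 over fraction 5 had a median of 1.16 (1.13 to 1.20), and 86.3% were wider in fraction 4. On the arms the 1847 matched regions gave 1.01, and 57.2% were wider in fraction 4. Fraction 6 over fraction 5 was 1.02 on the scaffolds and 1.00 on the arms. All scaffolds with over 10 matched regions gave a ratio above 1, from 1.08 on YHet to 1.20 on 3LHet.

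The difference from the arms was present for narrow and middle widths and small for wide ones. Up to 500 bp in fraction 5, fraction 4 over 5 was 1.38 on the scaffolds (1.26 to 1.49) and 1.16 on the arms (1.14 to 1.18). From 500 to 1000 bp it was 1.18 on the scaffolds (1.14 to 1.25) and 0.927 on the arms (0.898 to 0.954). From 1000 to 2000 bp it was 1.08 and 1.01, and above 2000 bp it was 1.02 and 1.01. The labels do not give the depth of each fraction, and its part in the called widths was not tested.

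**Figure D5:**
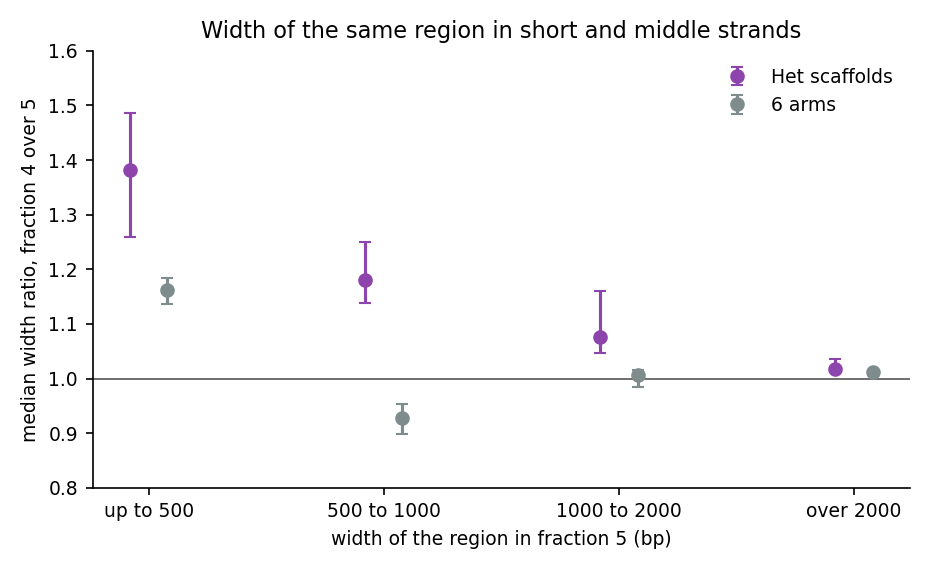
Median ratio of the width in fraction 4 (short strands) over that in fraction 5 (middle-sized strands) for regions matched in all 3 fractions (vertical axis), by width in fraction 5 in bp (horizontal axis), for the Het scaffolds and the 6 arms, with 95% intervals of the median. The scaffold medians are 1.38, 1.18, 1.08 and 1.02, and the arm medians are 1.16, 0.927, 1.01 and 1.01.

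Scaffold origins stood closer together than those of the arms as a whole. In Bg3, 90.2% of scaffold origins (88.6 to 91.7) had another of the list within 5 kb, beside 59.2% on the arms, and the median gap to the nearest was 790 bp against 3614 bp. In S2 it was 70.3% on the scaffolds (67.0 to 73.4) beside 51.2% on the arms, with gaps of 2184 and 4827 bp. The fractions gave 74.4%, 80.6% and 79.6% on the scaffolds for fractions 4, 5 and 6, beside 45.6%, 54.9% and 53.0% on the arms. Chromosome 4 was close to the scaffolds in this. There 72.6% of Bg3 origins, 62.8% of S2 origins and 66.1%, 78.0% and 88.1% of the regions of fractions 4, 5 and 6 had such a neighbour. The median gap in Bg3 was 790 bp on the scaffolds and 948 bp on chromosome 4, and in S2 it was 2184 and 927 bp. In fraction 5 it was 983 bp on the scaffolds and 508 bp on chromosome 4, and in fraction 6 it was 994 and 359 bp. On the scaffolds the close spacing came with a higher density, and no spacing beyond it was tested. On chromosome 4 this was not so in S2, with 31.9 regions per Mb against 53.6 on all arms. In Bg3 the densities were 78.6 and 55.9. In fractions 4, 5 and 6 they were 41.5, 43.8 and 43.8 on chromosome 4, against 29.7, 44.7 and 40.1 on all arms. When regions within 1 kb were joined, Bg3 over S2 relative to the arms was 1.58.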

How the data were processed

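SNS-seq regions of 9 samples were analysed as 5 lists, pooled-fraction Bg3 and S2 (2 biological replicates each) and S2 fractions 4, 5 and 6. Per the submitters' processing notes, Bowtie2 2.2.0, SAMtools 0.1.19 and MACS 1.4.1 were used with dm3. The sources used here give no settings, filters or handling of replicates. Per the file headers strength is called efficiency; the deposited values are a signal, reads divided by width in kb, and no scaling to library size is stated. The S2 values times width were whole in 100% of rows (tolerance 0.001 reads). Only reads inside listed regions are known, 31597272 in Bg3 and 42145362 in S2 on scaffolds and arms, and total library depth is unknown.

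Regions on Het scaffolds were set beside the 6 arms with Python 3.11.15, pandas 2.3.3 and SciPy 1.17.1. Overlap meant at least 1 bp. Shares have exact Clopper-Pearson 95% intervals, ratios of counts use the same method, and medians have order-statistic intervals. No test was run because no list has replicate columns. Matching means a single partner each way. The functions for overlaps, single partners and the Bg3 numbers of reads were tested on simulated data. Those for the 95% intervals were not. Coordinates are printed as deposited, where the smallest start is 0, so starts may be off by 1. Named regions were the 5 strongest Het origins of each pooled list, the strongest per scaffold, the 3 widest per fraction, the densest 100 kb windows and loci in all 5 lists. The example of a locus missing from pooled S2 is one of the widest. Members and lists were chosen with earlier results of these data known. No genome of this build was used, so no sequence or annotation is given.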

Additional observations from a re-analysis of the deposited data

How the results depend on the processing

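No paired analysis was possible because the lists carry no replicate columns, although the labels number replicates alike in both lines. Across 35 results and 301 alternative values, 6 reversed. Of the values that answer a comparison, 99 stayed inside the main interval or within 1.5 times the main count and 54 moved, and of the others 91 and 51 did. The reversals were the Bg3 minus S2 points, which for fractions 4, 5 and 6 became -4.29, -3.83 and -5.56 when 50% of both regions had to overlap, and -1.29, -2.24 and -2.73 with only origins above each list's median strength. With 50% of the fraction region covered they were 3.32, 1.59 and 2.53. Bg3 regions are narrower, and the cause of the reversal was not tested.

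Merging regions within 1 kb gave scaffold shares of 15.0% in Bg3 and 10.0% in S2, Bg3 over S2 of 1.58, 49.6% of Bg3 origins in S2, width ratios of scaffolds over arms of 2.13 in Bg3 and 1.98 in S2, a fraction 4 over 5 width of 1.10, and neighbour shares of 75.8% in Bg3 and 49.8% in S2. In base pairs the scaffold shares were 24.5% and 17.4%. Bg3 over S2 was 1.44 above the median strength and 2.03 with regions of at least 300 bp.

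With 50% of both, 50% of the origin counted, gaps of up to 500 bp, and origins above the median strength, the share of Bg3 origins in S2 was 23.6%, 39.2%, 50.8% and 41.0%, and that of S2 origins in Bg3 was 43.0%, 62.9%, 80.8% and 59.1%. Loci in all 5 lists fell to 158 under 50% of both regions.

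The strength ratio of scaffolds over arms was 3.94 in Bg3 and 3.91 in S2 from means, 1.54 and 1.92 from reads per origin, and 0.960 from the first Bg3 number alone. The read share without the strongest origin was 35.2% in Bg3 and 29.5% in S2, and without origins of 4 kb or more 47.4% and 26.5%. The mean log width ratio of fraction 4 over 5 was 1.25. Neighbours within 2 kb were 70.0% and 48.8%, and within 10 kb 97.9% and 89.9%.

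Leaving out each scaffold in turn gave Bg3 over S2 of 1.71 to 1.86, Bg3 in S2 of 41.1% to 45.9%, S2 in Bg3 of 74.5% to 76.6%, read shares of 27.6% to 41.1% in Bg3 and 24.4% to 31.0% in S2, S2 width ratios of 1.42 to 1.74 and 233 to 356 loci in all lists. The lowest Bg3 read share was without 3RHet, and the lowest locus count, over 1.5 times below 362, was without 2RHet. Differences by fraction stayed above 0 (4.94 to 12.3 points). With XHet's 11 to 14 regions per list, only large differences could be seen.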

Other observations

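Some scaffold origins strong in 1 line had no partner in the other; they were picked after their values were seen. On 3RHet a Bg3 origin of 118 bp at 2308619 to 2308736 had 154227 reads per kb (68.6 times the arms median). It lay 77 bp from the strongest S2 origin, and no fraction called it. The strongest Bg3 origin, which S2 shared, ended close beside it at 2308554. A second Bg3 origin without an S2 partner, on 3RHet at 2349250 to 2349594, had 68151 reads per kb (30.3 times). In S2, a pair of 3RHet origins far apart from each other was absent from Bg3 and called in all 3 fractions. These lay at 168247 to 173620 with 12654 reads per kb (8.16 times) and at 1392775 to 1398141 with 13548 (8.73 times), and were 5374 and 5367 bp wide. They resembled 14 and 17 other S2 origins in width (within 50 bp) and strength (within 10%). Of these look-alikes, 13 and 16 lay on the arms. Of the 59 wide S2 scaffold origins, 25 had at least 1 such look-alike on the scaffolds or the arms, and 9 had 5 or more. The same counts were not made for wide arm origins, so they are not a trait of the scaffolds. No sequence was at hand to compare the look-alikes. At the start of 2RHet a Bg3 origin of 349 bp at 0 to 348 had 68122 reads per kb (30.3 times), and its S2 partner, 1855 bp wide at 0 to 1854, had 3169 (2.04 times).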
